A study of Mus musculus with 7 samples.

Results

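The clustered protocadherins are cell adhesion molecules of the cadherin superfamily whose genes lie in the tandem alpha, beta and gamma clusters. They were taken here as every row of the deposited table whose symbol is that of an alpha, beta or gamma cluster gene, which gave 58 of 56941 rows: 14 alpha, 22 beta and 22 gamma genes. RNA sequencing had been done on cerebral cortex of mice at postnatal day 7. The 4 wild-type (WT) samples were compared with 3 samples labelled P213L, a variant of Hnrnph2, a gene on the X chromosome whose product, a heterogeneous nuclear ribonucleoprotein, binds RNA and takes part in splicing. The labels give tissue and age but not sex, nor whether each library came from its own animal or pool, so a p-value here refers only to the spread among these samples. Levels are in TPM, transcripts per 1000000, a unit scaled to gene length.

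Each alpha and gamma gene has its own promoter and a large variable first exon, which is spliced to constant exons shared by the whole cluster, while each beta gene is a single exon. Most genes of the clusters are chosen stochastically in single neurons, through looping by CTCF and cohesin to distal enhancers and through DNA methylation of unchosen promoters. The C-type genes at the ends of the alpha and gamma clusters are under different control and are expressed more broadly. The proteins bind like partners on other membranes, and this recognition underlies dendrite self-avoidance, axon tiling and neuron survival.

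In the GENCODE vM21 annotation of mm10, all 58 genes were on the plus strand of chromosome 18. The alpha cluster ran from 36930184 to 37187661, the beta cluster from 37264938 to 37524479 and the gamma cluster from 37661793 to 37841873. The alpha and gamma genes had 4 exons each in this annotation, and the beta genes had 1. The exon bases that no other gene model on that strand covered made up a median of 46.4% of the exon length in alpha, 100% in beta and 55.3% in gamma. The rest of an alpha or gamma gene was mostly constant exon shared with the other members of its cluster, and the sources used here do not give how reads in those shared exons were counted. Pcdhga10 shared 2119 exon bases with other members and was at 0 TPM in every library. Pcdha11 shared 2860 and did not exceed 0.048 TPM. Reads in the shared bases were thus hardly or not credited to these rows, and for the other members this was not checked. Comparisons of summed level between clusters are therefore given on both lengths. Pcdha4 had only 8.56% of its exon bases to itself.

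WT replicate 3 stood apart from the other 6 libraries over the whole table and was far lower in the alpha and gamma genes. The main protocadherin results are therefore given with and without it. Fold changes of single genes in the other lists are from all libraries unless stated otherwise. Estimated depth was 57.2 M counted units (M, 1e+06) in that library and 66.4 to 79.4 M in the other 6. The tested members had between 105 and 6191.5 counted units in each of those 6 libraries and between 25.5 and 1457.5 in WT replicate 3, with medians of 676 and 212.5. Hnrnph2 itself was at 78.9, 90.9, 90.9 and 87.5 TPM in WT replicates 1 to 4 and at 77.7, 88.1 and 80.3 TPM in P213L. The groups overlapped, and the level of the transcript does not check a single-residue variant.

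The cluster sums were nearly the same in every library but WT replicate 3. The alpha genes summed to 143.8, 143.9, 26.3 and 148.7 TPM in WT replicates 1 to 4 and to 140.5, 133.2 and 142.1 TPM in P213L. The beta genes summed to 164.7, 181.2, 124.3 and 174.6 TPM in WT and to 160.0, 170.3 and 169.1 TPM in P213L. For the gamma genes the sums were 250.7, 247.8, 59.7 and 255.9 TPM in WT and 256.2, 242.3 and 256.4 TPM in P213L. WT replicate 3 was the lowest library in all 3 clusters, at 18.5% of the mean of the other 6 in alpha, 73.1% in beta and 23.7% in gamma. Without it the P213L and WT ranges overlapped in beta and gamma. In alpha the P213L sums all lay below the 3 WT sums. The log2 ratio of the mean sums without WT replicate 3, P213L over WT, was -0.07 in alpha, -0.06 in beta and 0.00091 in gamma. With all 7 libraries these ratios were 0.26, 0.05 and 0.31. In bulk tissue, fewer cells of a type and less RNA per cell cannot be told apart.

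**Figure D1:**
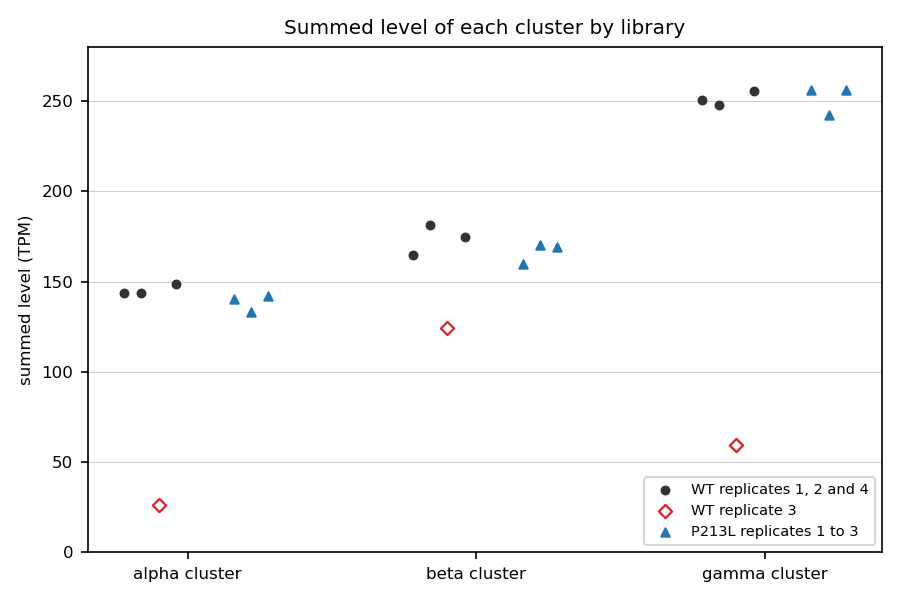
Summed level (TPM) of the alpha, beta and gamma cluster genes, 1 point for each library, with WT replicates 1, 2 and 4 as black circles, P213L as blue triangles and WT replicate 3 as an open red diamond. In alpha and gamma WT replicate 3 lay at 26.3 and 59.7 TPM, while the other 6 libraries lay between 133.2 and 148.7 TPM and between 242.3 and 256.4 TPM.

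Levels were also rescaled to the exon bases that each gene does not share, as TPM times whole exon length over unshared length. This treats all counted reads as lying in the unshared bases, which was not checked for most members, and the result is no longer TPM. On this scale the same 6 libraries gave sums of 283.3 to 313.4 for alpha, 161.3 to 182.9 for beta and 422.4 to 448.6 for gamma. Gamma was the highest cluster on both lengths. Alpha lay below beta on the whole exon length and above it on the unshared bases, so the order of these clusters depends on the length used. If reads in shared bases were left out for all members, as in the rows of Pcdhga10 and Pcdha11, the whole exon length understates alpha and gamma. The log2 ratios between the groups without WT replicate 3 were -0.07, -0.06 and 0.0056 on the unshared bases.

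Among single genes, 4 of the C-type members and Pcdhb20 had the highest levels on the whole exon length. Single genes were not ranked on the unshared bases, where alpha and gamma genes would stand higher beside beta genes. Pcdhgc4, which is needed for the survival of cortical interneurons, was at 50, 50.6, 11.3 and 51.7 TPM in WT replicates 1 to 4 and at 54.2, 49.9 and 53.0 TPM in P213L. Pcdhac2, which acts in the tiling of serotonergic axons, was at 49.5, 53.2, 7.07 and 54.7 TPM in WT and at 48.2, 42.3 and 49.4 TPM in P213L. Pcdhgc3, which promotes dendrite arborization in cortical neurons, was at 32.4, 32.3, 9.71 and 31.4 TPM in WT and at 31.7, 29.7 and 33.6 TPM in P213L. Leaving WT replicate 3 aside, the ranges of Pcdhgc4 and Pcdhac2 overlapped, and Pcdhgc3 lay below both in every library.

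Pcdhb20, a single-exon beta gene, was at 20.9, 24.3, 22.5 and 20.5 TPM in WT and at 18.4, 22.1 and 21.0 TPM in P213L. Pcdhgc5, the last gene of the gamma cluster, was at 21.9, 19.4, 4.02 and 20.3 TPM in WT and at 17.0, 15.8 and 18.3 TPM in P213L. The ranges of Pcdhb20 and Pcdhgc5 overlapped across the 6 libraries on the whole exon length, of which 100% was unshared in Pcdhb20 and 60.4% in Pcdhgc5. In Pcdhb20, unlike Pcdhgc5, WT replicate 3 lay inside the range of the other libraries.

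The C-type genes were not uniformly high. Pcdhac1, the neighbour of Pcdhac2, was at 3.26, 2.95, 0.512 and 3.42 TPM in WT and at 2.80, 2.87 and 3.10 TPM in P213L. These 5 genes together made up 27.6 to 28.1% of all clustered protocadherin TPM in WT replicates 1, 2 and 4 and 25.8 to 27.7% in P213L, ranges that overlapped narrowly. In WT replicate 3 the share was 15.5%. Within the alpha cluster, Pcdhac1 and Pcdhac2 together held 36.7 to 39.1% of the TPM in those WT libraries and 33.9 to 37.0% in P213L. In WT replicate 3 they held 28.9%. Pcdhgc3, Pcdhgc4 and Pcdhgc5 held 39.4 to 41.6% of gamma TPM over the 6 libraries, the Pcdhga genes 42.1 to 44.5% and the Pcdhgb genes 14.9 to 16.6%. In WT replicate 3 those gamma shares were 41.9, 42.6 and 15.5%, so the makeup of the gamma cluster by subfamily was close to that of the other libraries although its sum was far lower.

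The alternate genes covered a wide range. In alpha, Pcdha9 was at 18.7, 12.7, 2.66 and 14.3 TPM in WT and at 14.4, 13.8 and 17.9 TPM in P213L. Pcdha12 was at 14.4, 15.3, 3.58 and 12.5 TPM in WT and at 16.2, 13.0 and 14.8 TPM in P213L. In both genes WT replicate 3 was the lowest library, and the other WT libraries overlapped with P213L. Pcdha1, the first gene of the cluster and the lowest alternate alpha gene tested, was at 3.87, 3.56, 0.626 and 3.95 TPM in WT and at 4.05, 3.91 and 3.80 TPM in P213L.

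In beta, Pcdhb17 was at 16.5, 16.2, 11.1 and 15.7 TPM in WT and at 15.6, 16.2 and 15.7 TPM in P213L. Pcdhb9 was at 15.5, 15.4, 11.6 and 15.6 TPM in WT and at 14.5, 14.3 and 16.4 TPM in P213L. WT replicate 3 was again lowest, but it lay far closer to the other libraries than in the alpha genes. The lowest beta gene tested, Pcdhb6, was at 2.08, 3.26, 1.57 and 3.02 TPM in WT and at 3.21, 2.99 and 2.47 TPM in P213L. In gamma the lowest gene tested, Pcdhgb8, was at 1.80, 1.48, 0.304 and 1.31 TPM in WT and at 1.94, 1.34 and 1.58 TPM in P213L.

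Of the 58 genes, 5 had a mean below 1 TPM and were not tested. Pcdha4 did not exceed 0.037 TPM, Pcdha11 did not exceed 0.048 TPM and Pcdhb1 did not exceed 0.279 TPM in any library. Pcdhga10 was listed at 0 in all 7 libraries, although its cluster neighbours were measured. Pcdha8 was at 1.04, 0.729, 0.165 and 0.459 TPM in WT and at 1.39, 1.28 and 0.888 TPM in P213L, with groups that overlapped. Across the 6 libraries other than WT replicate 3, the tested genes had a median coefficient of variation of 10.2%, with a range of 2.35 to 21.1%, and all tested genes of the table had a median of 9.91%.

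**Figure D2:**
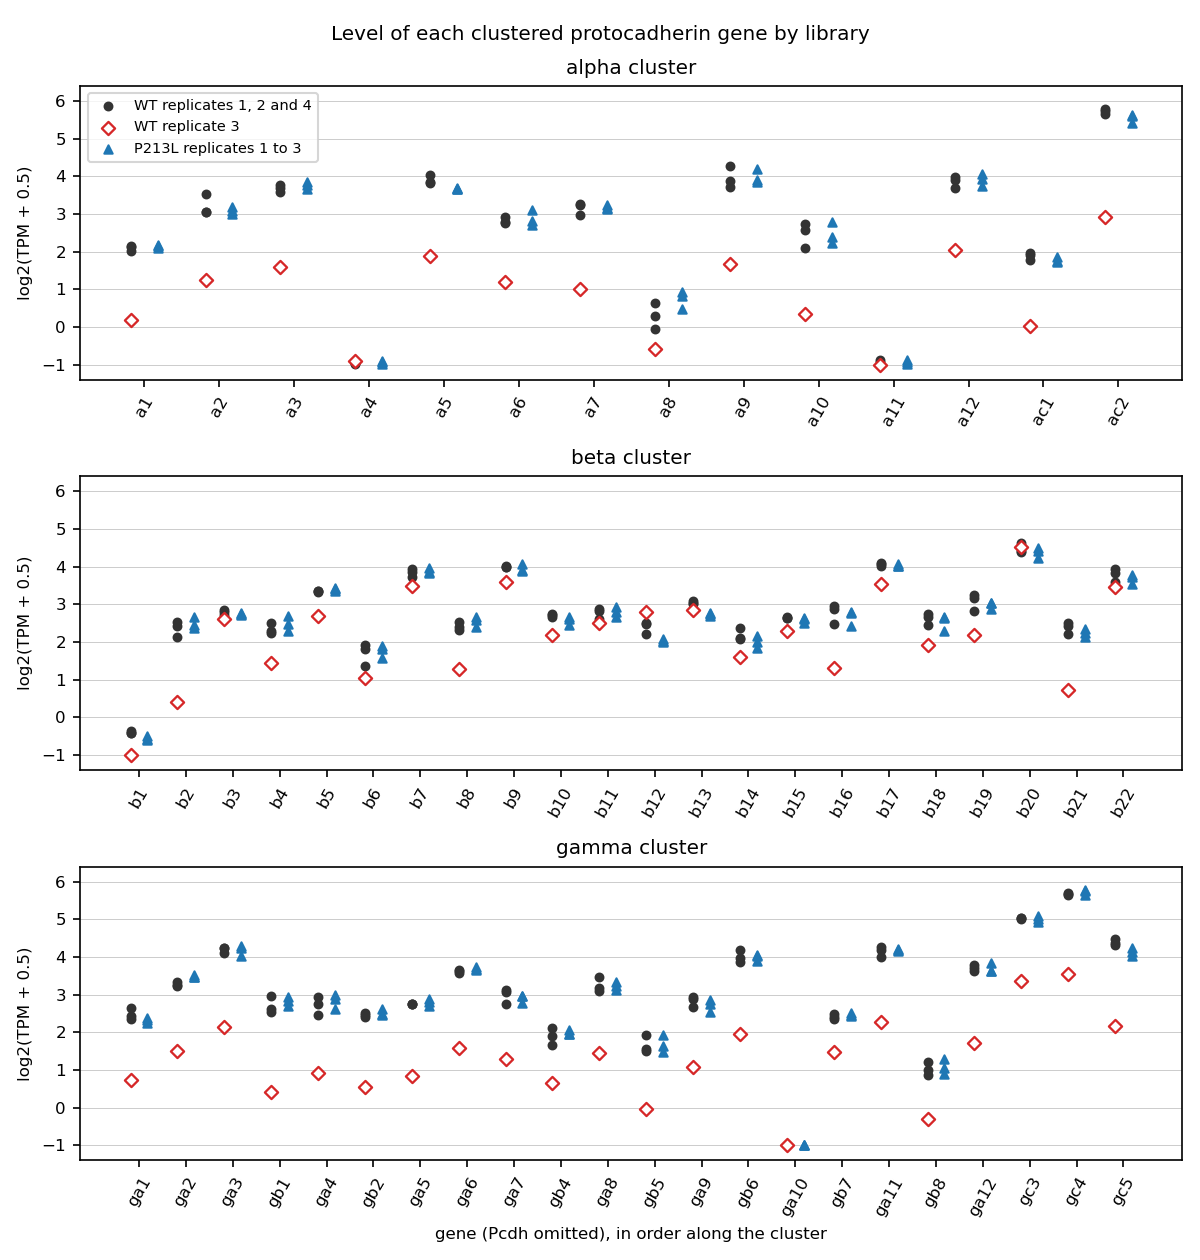
Level of each of the 58 genes as log2(TPM + 0.5), 1 point for each library, in the order of the genes along each cluster, with WT replicates 1, 2 and 4 in black, P213L in blue and WT replicate 3 as an open red diamond. Pcdhac2, Pcdhgc4 and Pcdhgc3 were the highest genes, and the red diamonds lie below the other points in all 11 tested alpha genes and all 21 tested gamma genes, but in only 18 of 21 tested beta genes.

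The study's comparison was P213L against WT. In limma's moderated test on log2(TPM + 0.5), run over the 17582 genes whose mean reached 1 TPM, none of the 53 tested protocadherins passed an adjusted p of 0.05, and their adjusted p ran from 0.827 to 0.995. Over all tested genes the share that passed was 0%. At an unadjusted p under 0.05, 0 of the 53 were higher in P213L, beside 2.36% of all genes, and 1 was lower, beside 1.38% of all genes. Over all genes those calls were 415 higher and 242 lower, a split that became 372 and 344 under median-of-ratios scaling and 400 and 410 under quantile normalization. The median log2 fold change was 0.53 in alpha, 0.09 in beta, 0.49 in gamma and 0.07 over all genes. In 46 of the 53 genes the fitted change was above 0, beside 63.4% of all tested genes.

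Those upward values rested on WT replicate 3. Without it, 26 of the 53 fitted changes were above 0 and 27 below, beside 49.6% above 0 over all tested genes. The medians were 0.0056 in alpha, -0.06 in beta, 0.03 in gamma and -0.0016 over all genes. None of the 53 passed an adjusted p of 0.05 in limma, where the smallest was 0.491, and over all genes the share was again 0%. At an unadjusted p under 0.05, 1 gene was higher in P213L, beside 4.7% of all genes, and 4 were lower, beside 3.99% of all genes. The fitted changes ran from -0.37 to 0.22 with a median SE of 0.11.

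**Figure D3:**
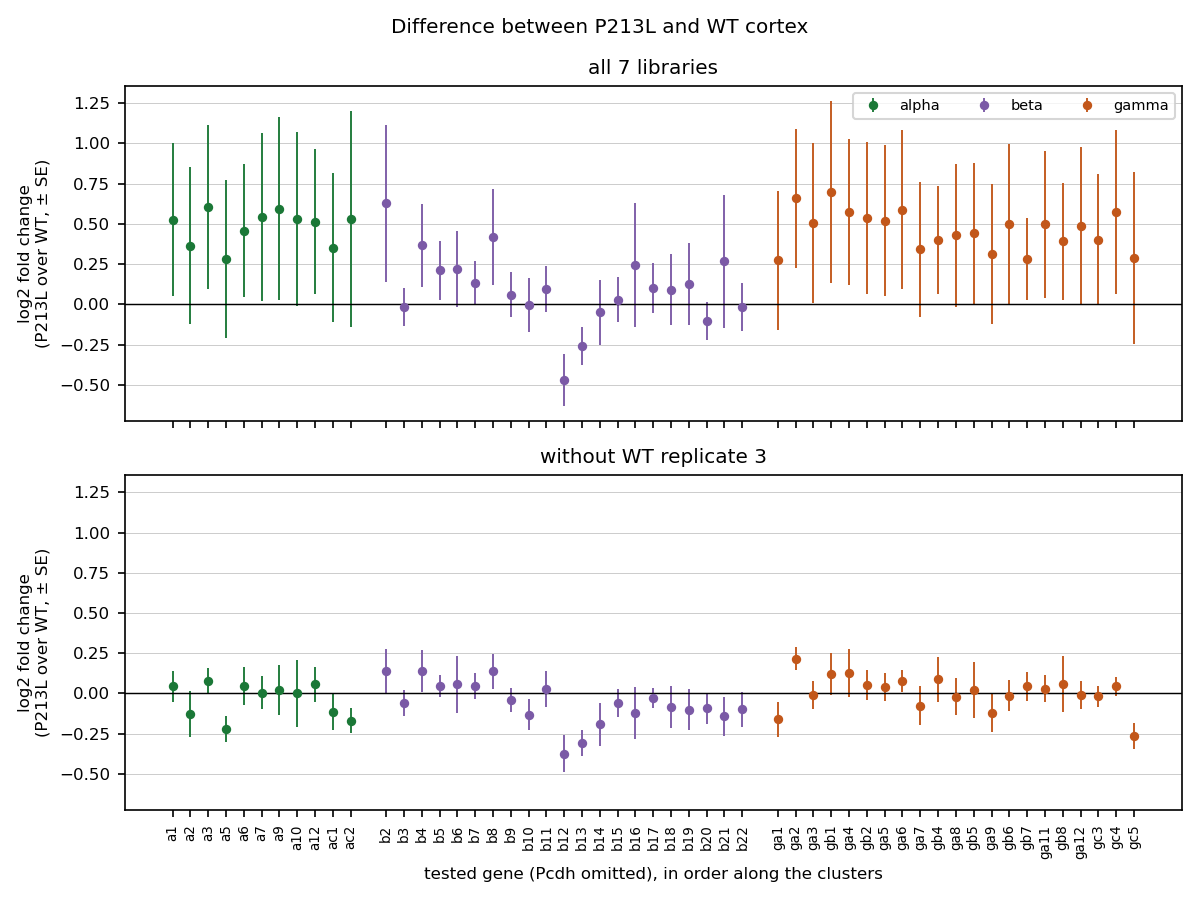
Log2 fold change (P213L over WT) with its SE for the 53 tested genes in cluster order, from all 7 libraries (upper panel) and without WT replicate 3 (lower panel), coloured by cluster. In the upper panel the alpha and gamma medians were 0.53 and 0.49, and in the lower panel no gene lay beyond -0.37 or 0.22.

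Pcdhb12 and Pcdhb13 were the beta genes with the smallest p. Pcdhb12 was at 5.10, 4.16, 6.42 and 5.22 TPM in WT (5.22 ± 0.93, SD, n = 4) and at 3.56, 3.48 and 3.73 TPM in P213L (3.59 ± 0.13, SD, n = 3). Every P213L library lay below every WT library. The log2 fold change was -0.47 ± 0.16 (SE), with an adjusted p of 0.827 in limma and 0.0571 in an exact two-sided permutation test of the group labels (35 arrangements), where the smallest possible p is 0.0286. Without WT replicate 3 the change was -0.37 ± 0.11, with an adjusted p of 0.507 in limma.

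Pcdhb13 was at 7.65, 8.06, 6.69 and 7.56 TPM in WT and at 6.19, 5.97 and 6.35 TPM in P213L. These groups did not overlap either, with or without WT replicate 3. Its log2 fold change was -0.26 ± 0.12 (adjusted p 0.827, limma), and without WT replicate 3 it was -0.31 ± 0.08 (adjusted p 0.491, limma), with a 95% confidence interval of -0.49 to -0.12. Pcdhb8, with the third smallest p in beta, was at 4.50, 5.27, 1.94 and 4.74 TPM in WT and at 5.83, 5.54 and 4.77 TPM in P213L, and the groups overlapped.

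Pcdhga2, an alternate gamma gene, was at 9.53, 8.97, 2.33 and 8.94 TPM in WT and at 10.5, 10.6 and 11 TPM in P213L. All P213L libraries lay above all WT libraries, with or without WT replicate 3. The log2 fold change was 0.66 ± 0.43 with all libraries (adjusted p 0.827, limma) and 0.22 ± 0.07 without WT replicate 3 (adjusted p 0.527, limma). Pcdhga4 and Pcdhgb1, also named for their small p in gamma, had changes of 0.57 ± 0.45 and 0.70 ± 0.57 with all libraries and of 0.13 ± 0.15 and 0.12 ± 0.13 without that library, and in both genes the groups overlapped.

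The alpha genes with the smallest p had no such separation. Pcdha3 was at 11.6, 12.4, 2.50 and 13.1 TPM in WT and at 13.2, 13.8 and 12.2 TPM in P213L, and its change of 0.60 ± 0.51 became 0.08 ± 0.08 without WT replicate 3. In Pcdha12 the change of 0.51 ± 0.45 became 0.06 ± 0.11. In Pcdha1 it went from 0.53 ± 0.47 to 0.04 ± 0.10.

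Among the C-type genes, Pcdhgc5 differed most between the groups once WT replicate 3 was left out. Its P213L libraries, at 15.8 to 18.3 TPM, then lay below the 3 remaining WT libraries, at 19.4 to 21.9 TPM, and the log2 fold change was -0.26 ± 0.08, with an interval of -0.45 to -0.07 and an adjusted p of 0.508 in limma. With all 7 libraries the value was 0.29 ± 0.53, of the other sign. Pcdhac2 went from 0.53 ± 0.67 to -0.17 ± 0.08, with an adjusted p of 0.580 in limma, and its P213L range also lay just below that of the 3 WT libraries. Pcdhac1, Pcdhgc3 and Pcdhgc4 had changes of -0.11 ± 0.11, -0.02 ± 0.07 and 0.04 ± 0.06 without WT replicate 3.

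Pcdha5 and Pcdhga6 were singled out after their values were seen, because their groups did not overlap. Pcdha5 was at 13.8, 13.7, 3.18 and 16 TPM in WT and at 12.2, 12.2 and 12.5 TPM in P213L, so that P213L lay below WT only where WT replicate 3 was left out, when the change was -0.22 ± 0.08 (adjusted p 0.537, limma). Pcdhga6 was at 12.1, 11.3, 2.47 and 11.9 TPM in WT and at 12.1, 12.3 and 12.8 TPM in P213L, where the nearest WT and P213L libraries were almost equal. With all 7 libraries the groups did not overlap in 2 genes that were higher in P213L (Pcdhga2 and Pcdhga6), beside 5.94% of all genes, and in 2 that were lower (Pcdhb12 and Pcdhb13), beside 2.75%. Without WT replicate 3 there were 2 higher genes (the same 2), beside 7.33%, and 5 lower (Pcdha5, Pcdhac2, Pcdhb12, Pcdhb13 and Pcdhgc5), beside 6.89%. With 3 libraries against 3 an exact permutation test cannot give a p below 0.1.

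The order of the genes by level was also similar in both groups. Across the 53 tested genes, Spearman's rho between the levels in any pair of the 6 libraries other than WT replicate 3 was 0.933 to 0.980, as a description across genes, which are not replicates. Pairs of a WT and a P213L library spanned 0.933 to 0.980 and pairs within a group 0.953 to 0.974. Each of these 6 libraries against WT replicate 3 gave 0.644 to 0.726. Within a cluster, WT replicate 3 gave 0.873 to 0.973 in alpha, 0.744 to 0.909 in beta and 0.892 to 0.944 in gamma. Pairs of the other 6 libraries gave 0.891 to 0.991, 0.864 to 0.982 and 0.952 to 0.990 there.

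No cell type marker passed the adjusted threshold in limma, with or without WT replicate 3. At an unadjusted p under 0.05, 6 of 13 oligodendrocyte lineage markers and 1 of 10 astrocyte markers were lower in P213L with all libraries, beside 1.38% of all genes. Without WT replicate 3 there were 7 and 4, beside 3.99%, and 0 of either list were higher in either fit. Of the 11 interneuron markers, 2 were higher with all libraries and 4 without that library, beside 2.36% and 4.7% of all genes, and 0 were lower in either fit. Without WT replicate 3, 2 of 4 Cajal-Retzius, 2 of 8 meningeal fibroblast and 2 of 5 erythroid markers were higher, 1 of 10 microglia, 1 of 8 endothelial and 1 of 7 choroid plexus markers were lower, and of 16 pan-neuronal markers 2 were higher and 3 lower. With all libraries the counts were 1, 2 and 1 higher, 2, 1 and 0 lower, and 0 higher and 1 lower. No cortical excitatory or striatal marker reached that p in either fit. The oligodendrocyte lineage markers summed to 758.8 to 819.4 TPM in WT replicates 1, 2 and 4 and to 708.7 to 761.4 TPM in P213L, ranges that overlapped. The astrocyte markers summed to 1297 to 1481 TPM and 1191 to 1260 TPM, ranges that did not overlap. In WT replicate 3 these sums were 749.0 and 1008 TPM. The pan-neuronal markers summed to 11764 to 12866 TPM and 12683 to 13053 TPM, with ranges that overlapped. The part of these cells in the protocadherin differences was not tested.

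WT replicate 3 lay below all 6 other libraries in 50 of the 53 tested genes: 11 of 11 in alpha, 18 of 21 in beta and 21 of 21 in gamma. Over all tested genes the share was 55%. It lay under 30% of the mean of the other 6 in 11 of 11 alpha genes, 2 of 21 beta genes and 18 of 21 gamma genes, beside 7.41% of all tested genes. The median difference on the log2(TPM + 0.5) scale was -1.95 in alpha, -0.48 in beta, -1.88 in gamma and -0.30 over all tested genes. The library was compared with the rest because it had been seen to differ, so these values describe it and carry no test.

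The beta genes varied most. Pcdhb12 stood at 152.6% of the mean of the other 6 libraries in WT replicate 3 and was the only tested member above all of them. Pcdhb20 stood at 106.1% and Pcdhb13 at 96.1%. At the other end, Pcdhb2 was at 3.85, 4.87, 0.820 and 5.30 TPM in WT and at 5.82, 4.71 and 4.98 TPM in P213L, so that WT replicate 3 held 16.7% of the mean of the other 6. Pcdhb21 held 26.0%. Both were singled out after their values were seen. In alpha the share ran only from 14.3 to 26.2%, and in gamma from 12.9% in Pcdhgb1 to 45.8% in Pcdhgb7.

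Several features of the gene models moved with this difference between the clusters. Across the 53 genes, the level in WT replicate 3 as a share of the other 6 had a Spearman's rho of 0.74 with the share of exon bases that a gene does not share, -0.68 with the GC content of those bases, -0.56 with their distance to the 3' end of the transcript and -0.44 with exon length. The median distance from the centre of those bases to the 3' end was 4110 bases in alpha, 1858 in beta and 3418 in gamma, and their median GC content was 53.0, 46.1 and 52.5%. Within a cluster the relations were weaker or of the other sign: rho with the unshared share was -0.66 over the 11 alpha genes, 0.10 over the 21 beta genes and 0.25 over the 21 gamma genes, and rho with the distance was -0.23, -0.19 and 0.28. Over 16595 tested genes with a length, rho with exon length was -0.34. The part of these features in the low values of WT replicate 3 was not tested.

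**Figure D4:**
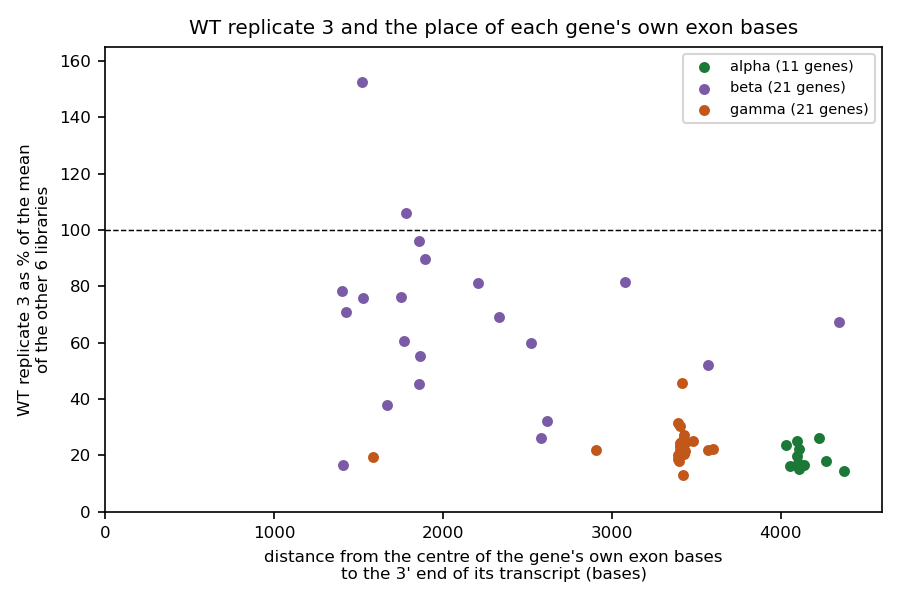
Level in WT replicate 3 as a percentage of the mean of the other 6 libraries, against the distance in bases from the centre of a gene's unshared exon bases to the 3' end of its transcript, 1 point for each of the 53 tested genes, coloured by cluster. The alpha genes lie at 14.3 to 26.2%, while the beta genes, whose median distance was 1858 bases, spread from 16.7 to 152.6%.

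The summed marker levels of cell types in WT replicate 3 lay nearer to those of the other libraries, some above and some below. The 16 pan-neuronal markers summed to 13665 TPM there and to 11764 to 13053 TPM in the other 6 libraries. The 12 cortical excitatory markers, genes of the projection neurons, summed to 3503 TPM against 2922 to 3479 TPM, and the 11 interneuron markers to 2542 TPM against 1657 to 1855 TPM. The 10 astrocyte markers summed to 1008 TPM against 1191 to 1481 TPM. The single markers were mixed: the median log2 difference of WT replicate 3 from the other 6 was -0.18 for pan-neuronal, -0.54 for excitatory, -0.40 for interneuron and -0.30 for astrocyte markers. The 6 erythroid markers summed to 903 TPM in WT replicate 3 and to 415 to 601 TPM in the others, and no marker of these lists was at 0 in all libraries. The 8 choroid plexus markers summed to 1324 TPM in WT replicate 2 and to 42.1 to 56.8 TPM elsewhere. The part of cell makeup in the protocadherin values was not tested.

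The 12 nonclustered protocadherins, single genes outside these clusters that share the extracellular cadherin repeats, gave a comparison with near relatives. WT replicate 3 was below the other 6 libraries in 10 of them, beside 55% of all tested genes. Its median log2 difference was -0.68, and it lay under 30% in 0 of 12, beside 7.41% of all tested genes. In limma none passed the adjusted threshold for P213L against WT. At an unadjusted p under 0.05 there were 0 higher and 0 lower genes with all libraries, beside 2.36% and 1.38% of all genes. Without WT replicate 3 there were 0 higher and 1 lower, beside 4.7% and 3.99%. Pcdh20 was at 8.35, 8.54, 7.24 and 8.26 TPM in WT and at 8.48, 10.8 and 11.1 TPM in P213L, with a change of 0.30 ± 0.14 (adjusted p 0.827, limma). Pcdh8, an activity-regulated protocadherin, was at 73.9, 61.0, 45.6 and 59.8 TPM in WT and at 73.3, 71.7 and 78.9 TPM in P213L, with a change of 0.33 ± 0.16 (adjusted p 0.827, limma). In both genes the groups overlapped.

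Of 13 genes for chromatin looping at the clusters, none passed the adjusted threshold in limma. At an unadjusted p under 0.05 there were 0 in either direction, with or without WT replicate 3. Over all genes the shares were 2.36% higher and 1.38% lower, and 4.7% and 3.99% without that library. Ctcf, whose protein binds the cluster promoters and enhancers, was at 49.5, 56.5, 39.7 and 53.9 TPM in WT and at 54.5, 58.2 and 52.2 TPM in P213L. Wiz, a zinc finger gene of this list, was at 62.6, 54.3, 20.2 and 54.2 TPM in WT and at 61.7, 56.8 and 61.9 TPM in P213L. The groups overlapped in both, and WT replicate 3 was their lowest library.

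Of 14 genes for silencing and DNA methylation, none passed the adjusted threshold in limma. At an unadjusted p under 0.05 there were 0 in either direction with all libraries, beside 2.36% higher and 1.38% lower over all genes. Without WT replicate 3 there were 0 higher and 1 lower, beside 4.7% and 3.99%. Smchd1, a chromatin protein that silences genes of these clusters, was at 7.81, 9.18, 5.99 and 9.19 TPM in WT and at 8.17, 9.87 and 8.81 TPM in P213L. Dnmt1, the maintenance DNA methyltransferase, was at 62.8, 53.5, 29.6 and 53.9 TPM in WT and at 65.5, 61.4 and 62.7 TPM in P213L. Lrif1, which encodes a partner of Smchd1, was at 3.82, 6.25, 6.95 and 5.78 TPM in WT and at 3.23, 5.07 and 4.09 TPM in P213L. The groups overlapped in all 3 genes. WT replicate 3 had a median log2 difference of -0.80 for this list and -0.44 for the looping genes.

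Downstream of the proteins, 19 genes for signalling partners and 8 for the enzymes that cleave protocadherins at the cell surface were listed, and none passed the adjusted threshold in limma. At an unadjusted p under 0.05 there were 0 in either direction in both lists with all libraries, beside 2.36% higher and 1.38% lower over all genes. Without WT replicate 3 there was 1 lower signalling gene, beside 3.99% of all genes, and 1 higher cleavage gene, beside 4.7%. Wasf1, a subunit of the WAVE complex that links some protocadherins to actin, was at 333.8, 363.8, 353.8 and 329.4 TPM in WT and at 297.6, 316.2 and 321.0 TPM in P213L. Its groups did not overlap, and the change was -0.15 ± 0.09 (adjusted p 0.827, limma). Abi2, of the same complex, had a change of -0.20 ± 0.13, with groups that overlapped. Aph1a, a subunit of the cleavage enzyme gamma-secretase, had a change of 0.14 ± 0.10, with groups that overlapped.

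In genes that flank the clusters on the chromosome, WT replicate 3 was low in some and high in others. Of 15 tested neighbours it was below the other 6 libraries in 6 and above them in 6. Over all 17582 tested genes it was below in 9677 and above in 3801. Its median log2 difference for the neighbours was -0.10. No neighbour passed the adjusted threshold in limma. At an unadjusted p under 0.05, 2 were higher and 0 lower in P213L, beside 2.36% and 1.38% of all genes. Without WT replicate 3, 3 were higher and 0 lower, beside 4.7% and 3.99%. Fchsd1, which encodes a membrane-curving protein, was at 17.1, 13.9, 8.61 and 14 TPM in WT and at 21.1, 18.1 and 20.9 TPM in P213L. Its groups did not overlap, and the change was 0.60 ± 0.22 with all libraries (adjusted p 0.827, limma) and 0.41 ± 0.11 without WT replicate 3 (adjusted p 0.491, limma). Dnd1, which encodes an RNA-binding protein of germ cells, was at 2.63, 1.72, 1.83 and 1.76 TPM in WT and at 2.73, 2.52 and 3.32 TPM in P213L, with groups that overlapped through WT replicate 1.

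**Figure D5:**
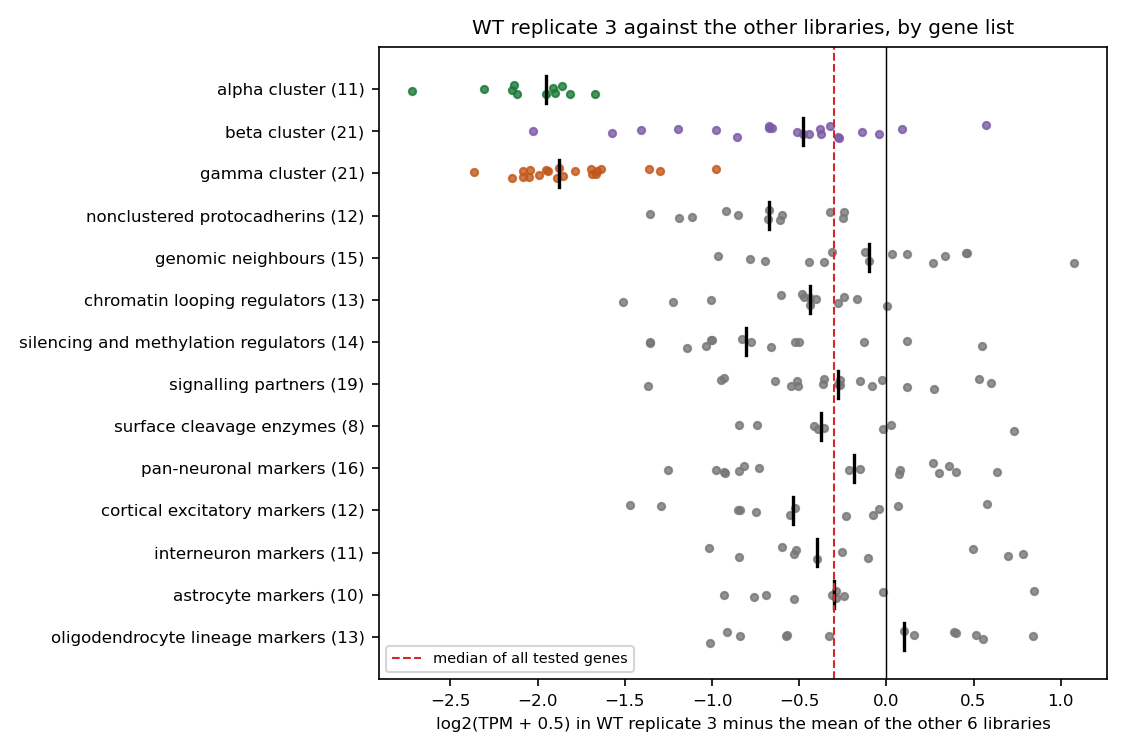
Difference of WT replicate 3 from the mean of the other 6 libraries on the log2(TPM + 0.5) scale, 1 point for each tested gene, by cluster and gene list, with a black bar at each list's median and a dashed line at the median of all tested genes. The alpha and gamma medians were -1.95 and -1.88, while the other lists shown had medians between -0.80 and 0.10 and all tested genes -0.30.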

How the data were processed

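Poly(A) RNA from fresh cortex had been made into strand-specific libraries, per the labels' protocols. The authors deposited TPM for 56941 rows and 7 samples, and their processing notes name HISAT2, HTSeq and mm10; the sources used here do not give versions, the annotation or how reads in shared exons were counted. Samples were grouped by their titles. The members and gene lists were chosen with earlier results of these data known.

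The test was limma's two-sided moderated test (limma 3.58.1, R 4.3.3) with a trend of variance on mean, on log2(TPM + 0.5). It was run on the 17582 genes whose mean over all 7 samples reached 1 TPM, and p was adjusted over them by Benjamini-Hochberg with a threshold of 0.05. Fold changes on this scale understate the change of low genes. No TPM value is a count, so no count test was run; single genes were also compared by exact permutation. Cluster sums and shares carry no test.

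Exon lengths came from GENCODE vM21. Pcdha10 and Pcdha11 were matched by RefSeq start. TPM times that length, in units of the most frequent low value of each library, gave whole numbers or multiples of 0.5 within 0.05 units for all 406 member values. Depth is this estimate of counted units, which limits the precision of low genes. Of the 50-base windows in a gene's unshared exon bases, some were found unchanged in the unshared bases of another member. Their share had a median of 13.5% in alpha, 3.48% in beta and 0.810% in gamma, so some reads may not be placed uniquely.

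Named were the C-type genes, the 3 tested genes of each cluster with the smallest p and the 3 with the highest mean, the lowest tested gene of each cluster, Hnrnph2, Ctcf, Smchd1 and the 2 genes of smallest p in each list that is no cell type list; others are said to be chosen after their values were seen, and 1 gene that the rule selects is not reported here. The fit was tested on simulated data. Alternatives were other pseudocounts (0.1, 1), filters (none, 5 TPM), scalings, fits with sample weights, without trend, robust or with the replicate number as a block, and libraries left out. The scalings without WT replicate 3 and the level on unshared exon bases were chosen after seeing the data. Python 3.11.15, pandas 2.3.3 and matplotlib 3.10.9 were used.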

Additional observations from a re-analysis of the deposited data

Results flagged for a closer look

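In 13 of 36 measures examined, 1 of the 4 WT libraries lay so far from the other 3 that its gap to the nearest exceeded Dixon's 95% critical value. Chance alone flags about 1 in 20 groups, and the measures are not independent. In 12 of the 13 the library was WT replicate 3, and in each of them it was the lowest. These were the sums of the alpha cluster (26.3 TPM) and of the gamma cluster (59.7 TPM) and 10 single protocadherins: Pcdhac1 at 0.512 TPM, Pcdhac2 at 7.07 TPM, Pcdhgc3 at 9.71 TPM, Pcdhgc4 at 11.3 TPM, Pcdhgc5 at 4.02 TPM, Pcdha3 at 2.50 TPM, Pcdha1 at 0.626 TPM, Pcdhb17 at 11.1 TPM, Pcdhb9 at 11.6 TPM and Pcdhga2 at 2.33 TPM. In Dnd1 the library was WT replicate 1, which at 2.63 TPM was the highest of the WT libraries.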

How the results depend on the processing

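The count of protocadherins past an adjusted p of 0.05 in limma was 0 under every setting run except sample weights, which gave 3: Pcdhb12 (-0.40, adjusted p 0.013), Pcdhb13 (-0.27, 0.0152) and Pcdhga2 (0.28, 0.0352). Those weights were 0.0432 for WT replicate 3, 5.24 for WT replicate 4 and 6.90 for P213L replicate 3, and 3981 of all tested genes were then called, so that 2 libraries carried most of the fit. The count of lower genes at an unadjusted p under 0.05, which was 1, became 0 with a filter of 5 TPM and with the replicate block, 2 with median-of-ratios scaling, quantile normalization, mitochondrial genes removed, centring on pan-neuronal markers or no trend, 5 with sample weights and 4 without WT replicates 2 and 3, and it ran from 0 to 4 as each library was left out, with 4 reached without WT replicate 3. The count of higher genes, 0, became 2 with sample weights and ran from 0 to 1 as libraries were left out. With WT replicate 3 left out, median-of-ratios scaling and quantile normalization each gave 1 higher and 4 lower genes, and centring on pan-neuronal markers gave 1 higher and 2 lower. Of the 20 protocadherins named by rule, 6 changed sign without WT replicate 3 (Pcdhac1, Pcdhac2, Pcdhgc3, Pcdhgc5, Pcdhb17 and Pcdhb9), 7 without WT replicates 2 and 3, 6 with sample weights, 1 without P213L replicate 3, and 1 or 2 under median-of-ratios or quantile scaling, none of these sign changes in a gene past the adjusted threshold. The causes were not tested. The numbers were not taken as pairs in the main fit, because nothing in the labels says that they mark litters or days. Deviations of same-numbered WT and P213L libraries had correlations of 0.13, 0.17 and -0.10. P213L replicates 1 and 2 each correlated best with the WT library of the same number, and P213L replicate 3 best with WT replicate 1 (0.12). The 4 and 3 libraries limit what can be seen. The median SE of the tested protocadherins was 0.43 on the log2 scale with all libraries and 0.11 without WT replicate 3. That library also had the lowest estimated depth, and the part of depth was not tested.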
